A study of Danio rerio with 18 samples.

Results

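Immediate early genes are the genes that a cell transcribes within minutes of a stimulus, without needing new protein first. Many of them encode transcription factors that switch on a second wave of genes. Their promoters are driven by factors that sit ready in the cell, among them serum response factor and CREB, and they respond to neuronal activity, growth factors, light, injury and handling. The members described here were the rows of the gene count table that carry the name of a listed immediate early gene. Of 10 listed genes 9 were matched among 28870 gene names, 8 by their own name and 1, ier2a, through its RefSeq synonym ier2. The gene ier2b was not matched. A row named IER2_(1_of_2) could not be tied to it by an identifier and is given separately.

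RNA came from whole bodies of zebrafish. All fish had at least one copy of stl297, an allele of scospondin, the gene of the large glycoprotein from which the Reissner fibre is built. The series calls the allele hypomorphic. The 6 groups of 3 libraries were het fish and maternal zygotic mutant fish, here MZ, at 5, 15 and 30 days post fertilisation (dpf). The allele is thus present in every group, and the comparison is with heterozygous rather than wild-type fish. The growth protocol is given as typical, with no treatment, and the labels state neither the number of fish in a library, nor their clutch, nor the hour, light or handling at collection. The count columns call the genotypes ox and homoz, and whether the crosses behind them differed in more than the allele cannot be told apart from genotype. The p-values therefore measure the spread between 3 libraries, which may be technical. In RNA of the whole body, fewer cells of a type and less RNA per cell cannot be told apart.

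Total counts per library ran from 10178388 to 17141819. Markers of neurons, fast muscle, liver, epidermis, erythrocytes and leukocytes were all detected, as a whole-body label requires. Of 16 matched neuronal markers gap43 had 0 counts in all 18 libraries. Levels below are read counts scaled to library size (CPM) with TMM factors over the 18 libraries. Fold changes and p-values come from edgeR's quasi-likelihood test on the counts with Benjamini-Hochberg adjustment over every gene in the fit. The threshold for a call was an adjusted p of 0.05. All 9 members passed the filter on low counts in every comparison.

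Per kilobase of the deposited gene length, the mean over the 18 libraries was highest for junbb, fosab and ier2, at 83.5, 75.7 and 74.3 CPM per kilobase. The values were 35.4 for junba, 29.1 for egr1, 8.81 for sik1, 8.45 for nr4a1, 4.75 for atf3 and 1.26 for npas4a. The members thus span a wide range of abundance, and npas4a was the least abundant in whole-body RNA. Its counts still lay between 20 and 298 in every library.

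In het fish the AP-1 genes were low at 5 dpf, highest at 15 dpf and intermediate at 30 dpf. In MZ fish their means differed less between the 3 ages. AP-1 is the dimer of a Fos and a Jun protein that binds DNA near many stimulus-responsive genes. The gene fosab encodes a Fos subunit. Its CPM in het fish was 36.5, 48.3 and 49.2 at 5 dpf, 346, 365 and 233 at 15 dpf, and 175, 155 and 167 at 30 dpf. In MZ fish it was 177, 156 and 236 at 5 dpf, 256, 156 and 170 at 15 dpf, and 177, 188 and 208 at 30 dpf. The 3 het libraries of 5 dpf lay below every other library, and the highest of the 3 age means was 7.04 times the lowest in het fish and 1.02 times in MZ fish.

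The genes junba and junbb encode JunB subunits of AP-1. CPM of junba in het fish was 11.4, 15.3 and 12.5 at 5 dpf, 92.9, 99.0 and 66.0 at 15 dpf, and 49.7, 48.9 and 42.4 at 30 dpf. In MZ fish it was 66.2, 63.0 and 88.7 at 5 dpf, 71.0, 46.1 and 53.3 at 15 dpf, and 53.1, 51.7 and 60.5 at 30 dpf. The groups did not overlap at 5 dpf, with MZ higher, nor at 30 dpf, where the gap was narrow. For junbb the group means of het fish were 35.3 ± 6.09, 194 ± 49.8 and 103 ± 3.79 CPM at 5, 15 and 30 dpf (SD, n = 3 each). The means of MZ fish were 134 ± 27.8, 121 ± 37.0 and 116 ± 20.3 CPM. The highest age mean of junbb was 5.51 times the lowest in het fish and 1.16 times in MZ fish. For junba these ratios were 6.59 and 1.32, with the highest MZ mean at 5 dpf.

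**Figure D1:**
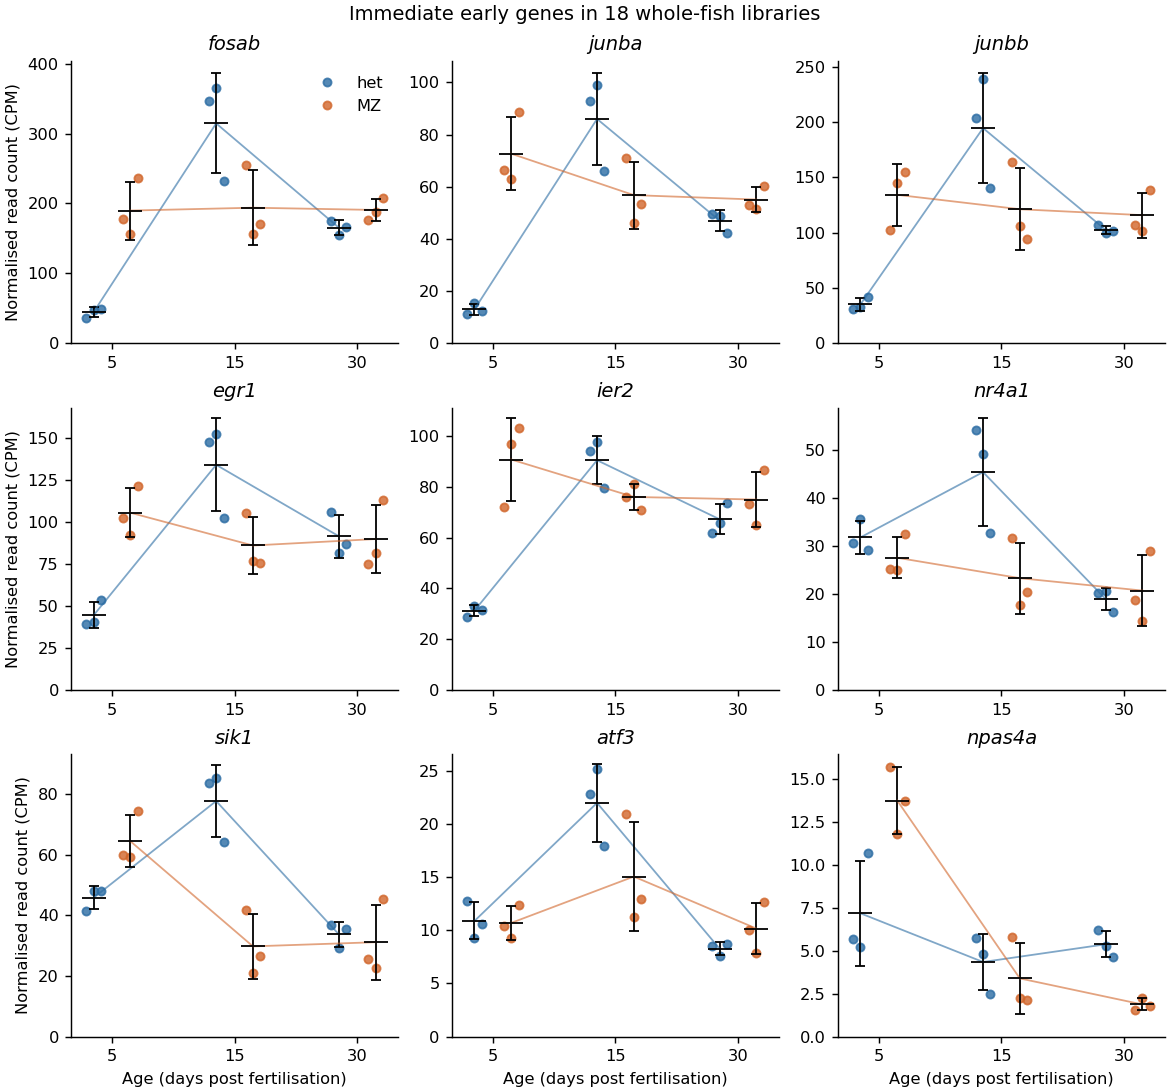
CPM of the 9 matched immediate early genes in each of the 18 libraries, by age in days post fertilisation (evenly spaced, not to scale), het in blue and MZ in orange. Points are libraries, black bars the mean ± SD of 3 libraries, and lines join group means; in the upper row the het libraries of 5 dpf lie lowest, with fosab between 36.5 and 49.2 CPM.

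The genes egr1 and ier2 followed the same course. The gene egr1 encodes a zinc finger transcription factor induced by growth factors and neuronal activity. Its CPM at 5 dpf was 39.3, 40.7 and 53.3 in het libraries, and MZ libraries had 102, 92.4 and 121, with no overlap. At 15 dpf it was 147, 152 and 102 in het libraries, and MZ libraries had 105, 76.8 and 75.5. The lowest het library lay below the highest MZ library. At 30 dpf the means were 91.5 ± 12.9 and 89.8 ± 20.2 CPM (SD, n = 3 each). The gene ier2 encodes a small nuclear protein of the immediate early response. Its mean CPM in het fish was 31.3 ± 2.17, 90.5 ± 9.52 and 67.2 ± 5.97 at 5, 15 and 30 dpf, and in MZ fish 90.8 ± 16.5, 76.0 ± 5.17 and 75.0 ± 10.9. The row IER2_(1_of_2) had 3.32 ± 1.03 CPM in het and 11.6 ± 0.413 CPM in MZ fish at 5 dpf (SD, n = 3 each), and its 15 and 30 dpf means lay between 14.0 and 15.8 CPM in both genotypes. The suffix marks it as a copy of a gene family, so reads shared with ier2 leave its value uncertain.

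For nr4a1, sik1 and atf3 het fish of 5 dpf did not have the lowest mean of the 6 groups. The gene nr4a1 encodes an orphan nuclear receptor. Its CPM at 5 dpf was 30.6, 35.6 and 29.1 in het libraries, and MZ libraries had 25.1, 25 and 32.4, so the groups overlapped. At 15 dpf it was 54.2, 49.1 and 32.7 in het libraries, and MZ libraries had 31.7, 17.7 and 20.5, with every het library above every MZ library. The gene atf3 encodes a bZIP factor of the stress response. Its means at 5 dpf were 10.9 ± 1.74 CPM in het and 10.7 ± 1.58 CPM in MZ fish, and at 15 dpf 22 ± 3.66 and 15.0 ± 5.12 CPM (SD, n = 3 each).

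The gene sik1 encodes salt-inducible kinase 1, which is induced by cAMP signalling and restrains CREB by acting on its coactivators, the CRTC proteins. Its CPM in het fish was 41.5, 47.9 and 48.1 at 5 dpf, 83.8, 85.4 and 64.1 at 15 dpf, and 36.9, 29.1 and 35.4 at 30 dpf. In MZ fish it was 59.8, 59.2 and 74.5 at 5 dpf, 41.8, 21.0 and 26.7 at 15 dpf, and 25.7, 22.5 and 45.4 at 30 dpf. The genotypes thus stood apart at 5 dpf, with MZ higher, and at 15 dpf, with MZ lower, and overlapped at 30 dpf.

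The gene npas4a took another course. In mouse its counterpart encodes a neuron-specific transcription factor induced by calcium influx during neuronal activity. Its CPM at 5 dpf was 5.66, 5.19 and 10.7 in het libraries, and MZ libraries had 15.7, 11.8 and 13.7. At 15 dpf it was 5.73, 4.80 and 2.51 in het libraries, and MZ libraries had 5.78, 2.24 and 2.16. At 30 dpf it was 6.18, 5.29 and 4.65 in het libraries, and MZ libraries had 1.57, 2.26 and 1.8. MZ libraries lay above all het libraries at 5 dpf and below all of them at 30 dpf, and the highest age mean was 7.32 times the lowest in MZ fish and 1.65 times in het fish.

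Between the genotypes at 5 dpf, 7 of the 9 members rose in MZ fish and none fell, where 40.7% of all genes tested were called and 21.1% were called higher. By p-value the rises of junba, fosab, junbb, ier2 and egr1 ranked 9, 33, 77, 93 and 209 of 19779 genes, and those of sik1 and npas4a 2592 and 3316. The gene junba rose 5.91-fold (log2 fold change 2.56, SE 0.15, edgeR adjusted p = 4.31e-08). The gene fosab rose 4.48-fold (log2 fold change 2.16, SE 0.15, adjusted p = 1.96e-07) and junbb 3.99-fold (2.00, SE 0.16, adjusted p = 4.14e-07). The gene ier2 rose 3.06-fold (1.61, SE 0.13, adjusted p = 6.21e-07) and egr1 2.49-fold (1.32, SE 0.13, adjusted p = 4.41e-06). Smaller rises were those of npas4a, at 1.99-fold (0.99, SE 0.22, adjusted p = 0.00271), and sik1, at 1.48-fold (0.57, SE 0.11, adjusted p = 0.00126). The log2 fold changes of the members not called were -0.13 (SE 0.13) for nr4a1 and 0.04 (SE 0.16) for atf3.

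The median log2 fold change of the 9 members at 5 dpf was 1.32, against -0.003 over all genes tested. The groups did not overlap, with MZ higher, for the 7 called members, as they did not for 21.8% of all genes tested. All 7 kept their call in each of 6 fits without 1 library, and the call of sik1 was lost in a fit over all 18 libraries (log2 fold change 0.50, adjusted p = 0.0804). The row IER2_(1_of_2) rose 3.78-fold (log2 fold change 1.92, SE 0.20, edgeR adjusted p = 6.09e-06).

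**Figure D2:**
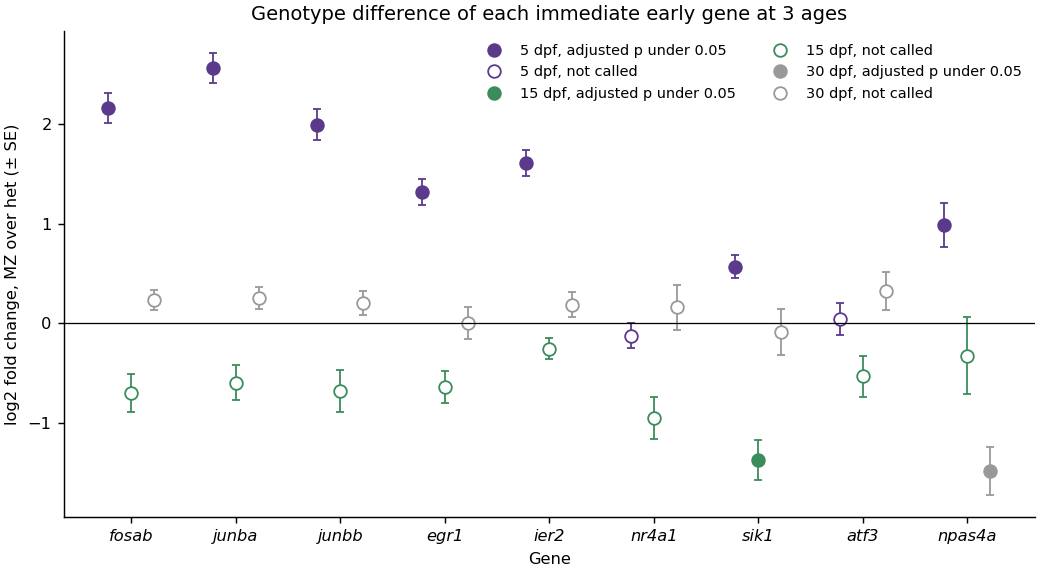
log2 fold change of MZ over het for each of the 9 genes at 5, 15 and 30 dpf, with bars of ± 1 SE from edgeR; filled points had an adjusted p under 0.05. At 5 dpf junba stands highest at 2.56, at 15 dpf every point lies below 0, and at 30 dpf npas4a alone stands far from 0, at -1.48.

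At 15 dpf the sign was opposite for the 7 members called at 5 dpf, while nr4a1 was below 0 at both ages. All 9 members had a log2 fold change below 0, with a median of -0.64 against -0.005 over all genes tested, but 1 member, sik1, passed the test, where 0.886% of all genes were called and 0.445% were called lower. The fall of sik1 was 2.59-fold (log2 fold change -1.37, SE 0.20, edgeR adjusted p = 0.0206). The values of nr4a1 were close to the threshold (-0.95, SE 0.21, adjusted p = 0.0561), followed by egr1 (-0.64, SE 0.16, adjusted p = 0.0749), fosab (-0.70, SE 0.19, adjusted p = 0.0890) and junba (-0.60, SE 0.17, adjusted p = 0.102). The groups did not overlap, with MZ lower, for sik1 and nr4a1, as they did not for 12.6% of all genes. For junbb, atf3, npas4a and ier2 the log2 fold changes were -0.68, -0.53, -0.33 and -0.26.

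The number called at 15 dpf rested on single libraries, for all genes as for the members. It was 7 members, all lower in MZ fish, and 923 genes without MZ replicate 1. It was 3 members and 120 genes without het replicate 3, and 1 member and 90 genes without MZ replicate 2. It was 0 members without het replicate 1, het replicate 2 or MZ replicate 3, with 2, 2 and 3 genes. The call of sik1 was the one lost in the last 3 fits, with adjusted p of 0.0788, 0.103 and 0.102. DESeq2 called 4 members and 618 genes, and a fit with no filter on low counts 6 members and 543 genes, with the members all lower in MZ fish. The fit with the library number as a block (77 genes) and the fit over all libraries (278 genes) each called 2 members, sik1 and nr4a1.

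At 30 dpf 1 member, npas4a, was called, where 3.29% of all genes were called and 2.19% were called lower. It fell 2.80-fold in MZ fish (log2 fold change -1.48, SE 0.24, edgeR adjusted p = 0.0220). The groups did not overlap, with MZ lower, for npas4a, as they did not for 15.5% of all genes. The call was lost without any one of the 3 het libraries or without MZ replicate 1, with adjusted p up to 0.0938, while the log2 fold change stayed between -1.64 and -1.39. Without het replicate 1, 2 or 3 or MZ replicate 1 the genes called fell from 657 to 90, 1, 12 and 2. The other 8 members had log2 fold changes between -0.09 for sik1 and 0.33 for atf3. The genes fosab and junba had an unadjusted p of 0.0427 and 0.0420, with log2 fold changes of 0.23 (SE 0.10) and 0.26 (SE 0.11) and adjusted p of 0.209 and 0.208. Their groups did not overlap, with MZ higher, as in 12.3% of all genes.

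The genotype difference itself changed with age for 8 of the 9 members, where the interaction test called 33.3% of all genes. Adjusted p was lowest for junba (edgeR, 2.69e-07), fosab (2.33e-06) and ier2 (4.69e-06), and it was 0.0804 for atf3, the member not called. Contrasts between pairs of ages were chosen after the data were seen. For fosab, junba, junbb, egr1 and ier2 the difference was called between 5 dpf and each later age, and not between 15 and 30 dpf. In that last contrast junba (difference 0.82, SE 0.23, edgeR adjusted p = 0.0530) and fosab (0.90, SE 0.26, adjusted p = 0.0559) were close to the threshold. For junbb, egr1 and ier2 the adjusted p was 0.098, 0.190 and 0.241. Whether the genotype difference of these genes changed between 15 and 30 dpf was thus not resolved. From 5 to 15 dpf the log2 fold change of MZ over het changed by -3.08 for junba (SE 0.25, edgeR adjusted p = 2.50e-07), -2.78 for fosab (SE 0.27, adjusted p = 2.23e-06) and -1.87 for sik1 (SE 0.31, adjusted p = 0.000499). This contrast called 6 of the 9 members and 18.5% of all genes. Between 5 and 30 dpf 6 members were called, against 35% of all genes, and npas4a moved most, by -2.43 (SE 0.48, adjusted p = 0.000660). Between 15 and 30 dpf 1 member, sik1, was called (difference 1.26, SE 0.32, adjusted p = 0.0320), against 3.86% of all genes. For nr4a1 none of these contrasts was called (edgeR adjusted p = 0.107, 0.450 and 0.0648, in the order given). Its interaction was called in 12 of 18 fits without 1 library.

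The change with age within each genotype describes the same libraries from the other side, so it is no separate evidence, and the steps before and after 15 dpf share the libraries of that age. From 5 to 15 dpf in het fish 8 members rose, where 39.7% of all genes were called and 19.7% were called higher, and the value of npas4a was -0.73 on the log2 scale (SE 0.30, edgeR adjusted p = 0.0685). The gene fosab rose 7.09-fold (log2 fold change 2.83, SE 0.16, adjusted p = 6.33e-09), junba 6.69-fold, junbb 5.53-fold, egr1 3.02-fold, ier2 2.92-fold, atf3 2.02-fold, sik1 1.71-fold and nr4a1 1.44-fold. The call of nr4a1 was lost without het replicate 1 of 5 dpf (adjusted p = 0.0559) or of 15 dpf (0.0772), and in the fit over all libraries (0.0770). From 15 to 30 dpf in het fish 8 members fell, where 21.5% of all genes were called and 10.9% were called lower. The falls were largest for atf3 (log2 fold change -1.41, SE 0.15, adjusted p = 6.53e-05), nr4a1 (-1.26, SE 0.17, adjusted p = 0.000372) and then sik1 (-1.20, SE 0.13, adjusted p = 7.72e-05), and npas4a was not called (0.30, SE 0.27, adjusted p = 0.472). The calls of egr1 and ier2 in this step were lost in 4 and 3 of 6 fits without 1 library.

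In MZ fish from 5 to 15 dpf 2 members were called and both fell, where 57% of all genes were called and 29.3% were called lower. The gene npas4a fell most (log2 fold change -2.001, SE 0.29, edgeR adjusted p = 5.98e-05) and sik1 2.18-fold (-1.12, SE 0.20, adjusted p = 0.000270). The log2 fold changes of the other members ran from -0.37 for junba to 0.48 for atf3, and that of fosab was 0.01 (SE 0.18). Without MZ 15 dpf replicate 1 the number called was 6, all of them falls, and without MZ 5 dpf replicate 2 it was 4, also falls. The fit with no filter and the fit with the library number as a block each called 5, of which npas4a, sik1, egr1 and junba fell and atf3 rose. The rise of atf3, with an adjusted p of 0.0654 in the fit reported, was called in all 5 alternative fits on the full set of libraries, with adjusted p from 0.0381 to 0.0457. From 15 to 30 dpf in MZ fish edgeR called 0 of the 9 members, where 19.3% of all genes were called. At an unadjusted p under 0.05 there were 0 as well, DESeq2 called 0, and a fit over all libraries called 1, atf3.

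The order of the 6 groups shows which levels stood apart. For fosab, junba, junbb and egr1 het fish of 15 dpf had the highest mean and het fish of 5 dpf the lowest, and the range of the 5 dpf het libraries overlapped no neighbouring group. The ranges of the 5 other groups of fosab formed an unbroken chain of overlaps, from het fish at 15 dpf (232.6 to 365 CPM) down to het fish at 30 dpf (155 to 175 CPM). For ier2 the 5 dpf het group was again separate at the bottom, and MZ fish at 5 dpf and het fish at 15 dpf were level at the top. For sik1 het fish of 15 dpf and MZ fish of 5 dpf overlapped at the top. Het fish of 5 dpf (41.5 to 48.1 CPM) came next without overlapping their neighbours in the order. The remaining 3 groups overlapped. Within the range of het fish at 5 dpf lay 1 library of MZ fish at 30 dpf (45.4 CPM) and 1 at 15 dpf (41.8 CPM). For npas4a MZ fish of 5 dpf stood alone at the top. For atf3 and nr4a1 each group overlapped its neighbours in the order of means.

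Within the MZ groups and het fish of 15 dpf the members tended to be high or low in the same library. This was less marked in the other het groups. Replicates 1, 2 and 3 were the highest for 1, 3 and 5 members in het fish of 5 dpf, and for 6, 1 and 2 at 30 dpf. Het replicate 3 of 15 dpf was the lowest of its group for 9 of 9 members, and MZ replicate 1 of 15 dpf was the highest for 8 of 9. MZ replicate 3 was the highest for 8 of 9 members at 5 dpf and for 8 of 9 at 30 dpf. The same counts were not taken over all genes, and genes of a library share its scaling. Averaged over the 9 members on the log2(CPM + 1) scale, MZ replicate 1 of 15 dpf stood 0.42 above its group mean, and het replicate 3 of 15 dpf stood at -0.36 relative to its own. Total counts of these libraries, 13720410 and 13875128, lay within the range of the other 15 dpf libraries. The TMM factor of MZ replicate 1 was 0.946, with 0.870 and 0.844 in the other MZ libraries of 15 dpf. That of het replicate 3 was 0.976, with 0.9695 and 0.957 in the other het libraries. The cause of the shared deviation was not tested.

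**Figure D3:**
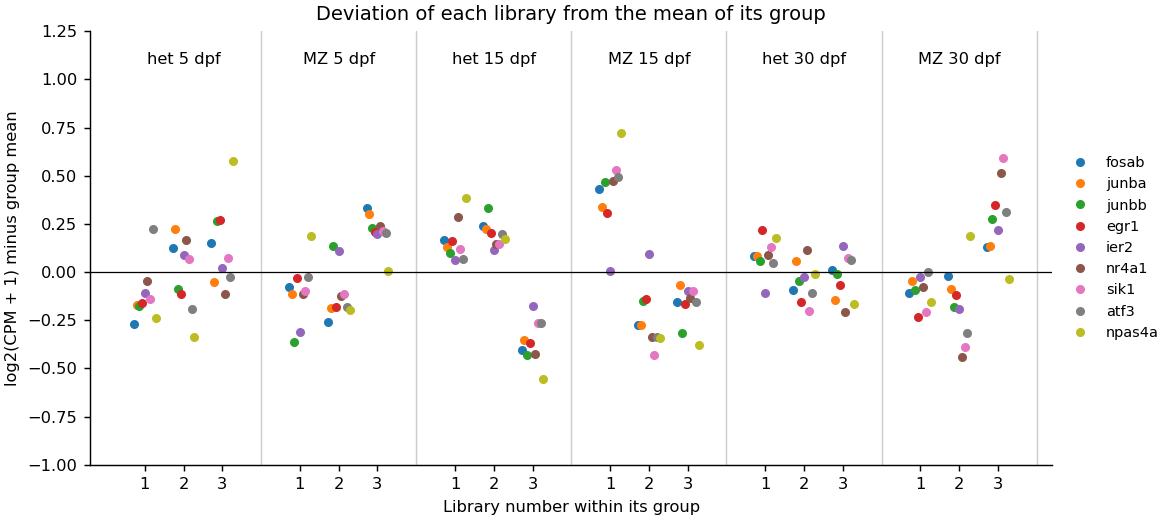
Deviation of each library from the mean of its group on the log2(CPM + 1) scale, for the 9 genes in 18 libraries. In the MZ groups and het fish of 15 dpf, points of one library tend to lie on one side of 0. All 9 lie below it in het replicate 3 of 15 dpf, and MZ replicate 1 of 15 dpf averages 0.42 above.

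The deviation of a member from its group mean was compared with the mean deviation of the other 8 members over the 18 libraries, as a description. Pearson's r was highest for egr1 (0.901) and fosab (0.900) and lowest for ier2 (0.453) and npas4a (0.625), with Spearman's rho of 0.822, 0.893, 0.496 and 0.573. Over 12856 other genes with a mean of at least 5 CPM, the genes whose deviations were most like the mean of the members were btg2 (Pearson's r 0.951, Spearman's rho 0.922), jdp2b (0.951 and 0.946), egr3 (0.917 and 0.903), ptgs2a (0.913 and 0.876) and ndst2a (0.911 and 0.915). The next were SALL2_(2_of_2), dusp1, csrnp1b, TENM2_(2_of_2) and agla, with r between 0.872 and 0.900. The points share library and scaling, the genes were picked for their r, and no test is attached. Of these 10 genes btg2, egr3, dusp1 and csrnp1b were in the list of other immediate early genes. The genes of that list ran from rank 1 (btg2) to rank 10167 (ctgfb, r -0.374) among the 12856.

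A list of 75 other immediate early and rapidly induced genes, of which 67 were matched, was written from general knowledge. Like the members and the other lists, it was chosen with earlier results of these data known, so its counts are a description. At 5 dpf 27 of the 65 tested rose in MZ fish and 16 fell, beside 21.1% of all genes called higher and 40.7% called. The median log2 fold change was 0.18. Among the closest relatives of the members, fosb, a Fos paralog, rose from 2.05 ± 0.334 to 7.72 ± 2.57 CPM (SD, n = 3 each; log2 fold change 2.02, SE 0.27, edgeR adjusted p = 4.71e-05). The gene nr4a3, a paralog of nr4a1, rose from 9.75 ± 1.24 to 29.8 ± 0.0923 CPM (1.70, SE 0.12, adjusted p = 2.23e-07), unlike nr4a1 itself, a difference between the genes that was not tested. The genes egr2a (1.56, SE 0.31, adjusted p = 0.00112), nr4a2b (1.31, SE 0.25, adjusted p = 0.000789), egr3 (1.07, SE 0.19, adjusted p = 0.000411), EGR4 (0.74, SE 0.16, adjusted p = 0.00235) and jun (0.53, SE 0.10, adjusted p = 0.000834) also rose. The genes fosaa, egr2b and npas4b were not called, with log2 fold changes of 0.51 (SE 0.43), 0.07 (SE 0.22) and 0.18 (SE 0.47), and nr4a2a, with at most 4 counts in a library, was not tested.

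Not all rapidly induced genes moved with the members. The largest change in the list at 5 dpf was a fall, that of klf2a, a Krüppel-like factor induced by blood flow, from 128 ± 27.3 CPM in het to 29.3 ± 6.31 CPM in MZ fish (SD, n = 3 each; log2 fold change -2.05, SE 0.16, edgeR adjusted p = 3.47e-07). Its paralog klf2b, named here after its values were seen, had 31.1, 34.2 and 30.1 CPM in het libraries of 5 dpf. MZ libraries of that age had 53.3, 63.1 and 62.4 CPM of klf2b. At 15 dpf, where 0.445% of all genes were called lower, 7 of 64 genes tested fell and none rose, with a median of -0.27. These included egr3 (-1.24, SE 0.23, adjusted p = 0.0389), btg2, an antiproliferative gene (-1.03, SE 0.21, adjusted p = 0.0451), cebpb (-0.82, SE 0.16, adjusted p = 0.0396), klf2a (-0.80, SE 0.13, adjusted p = 0.0284) and cebpd (-0.73, SE 0.14, adjusted p = 0.0433). Each of these 5 lost its call in 3 or 4 of 6 fits without 1 library, as did btg2 in DESeq2 (adjusted p = 0.0622), cebpb with the library number as a block (0.0546) and klf2a in the fit over all libraries (0.0609). At 30 dpf 3 of 64 genes were called, where 3.29% of all genes were called. EGR4 fell (-1.15, SE 0.16, adjusted p = 0.0189), and ctgfb (0.67, SE 0.13, adjusted p = 0.0327) and gadd45ab (0.60, SE 0.13, adjusted p = 0.0451) rose. Of 6 fits without 1 library, the call was kept in 3 for EGR4, 1 for ctgfb and 0 for gadd45ab. With the library number as a block ctgfb (adjusted p = 0.0512) and gadd45ab (0.0724) were not called.

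The kinases and factors that act upstream of immediate early genes were described by a list of 44 genes, of which 42 were tested. At 5 dpf, where 40.7% of all genes were called and 21.1% were called higher, 19 rose in MZ fish and 6 fell. The median log2 fold change of the list was 0.27. The largest changes were those of crtc1b, a CREB coactivator, with 2 to 16 counts in het and 46 to 97 in MZ libraries (log2 fold change 2.85, SE 0.46, edgeR adjusted p = 0.000239), sik2a (1.96, SE 0.34, adjusted p = 0.000448), prkacba, a catalytic subunit of the cAMP-dependent kinase (-1.16, SE 0.28, adjusted p = 0.00391), camk2a, a calcium-dependent kinase abundant in neurons (1.09, SE 0.18, adjusted p = 0.000246), and sik2b (0.85, SE 0.10, adjusted p = 2.74e-05). The row SIK3, with at most 13 counts in a library, was not tested. At 15 dpf edgeR called 0 of 42 genes, against 0.886% of all genes, with 12 at an unadjusted p under 0.05 and 0 by DESeq2. At 30 dpf it called 1, against 3.29% of all genes. This was camk2a (-0.84, SE 0.14, adjusted p = 0.0219), whose call was lost in 4 of 6 fits without 1 library, with adjusted p up to 0.0968.

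**Figure D4:**
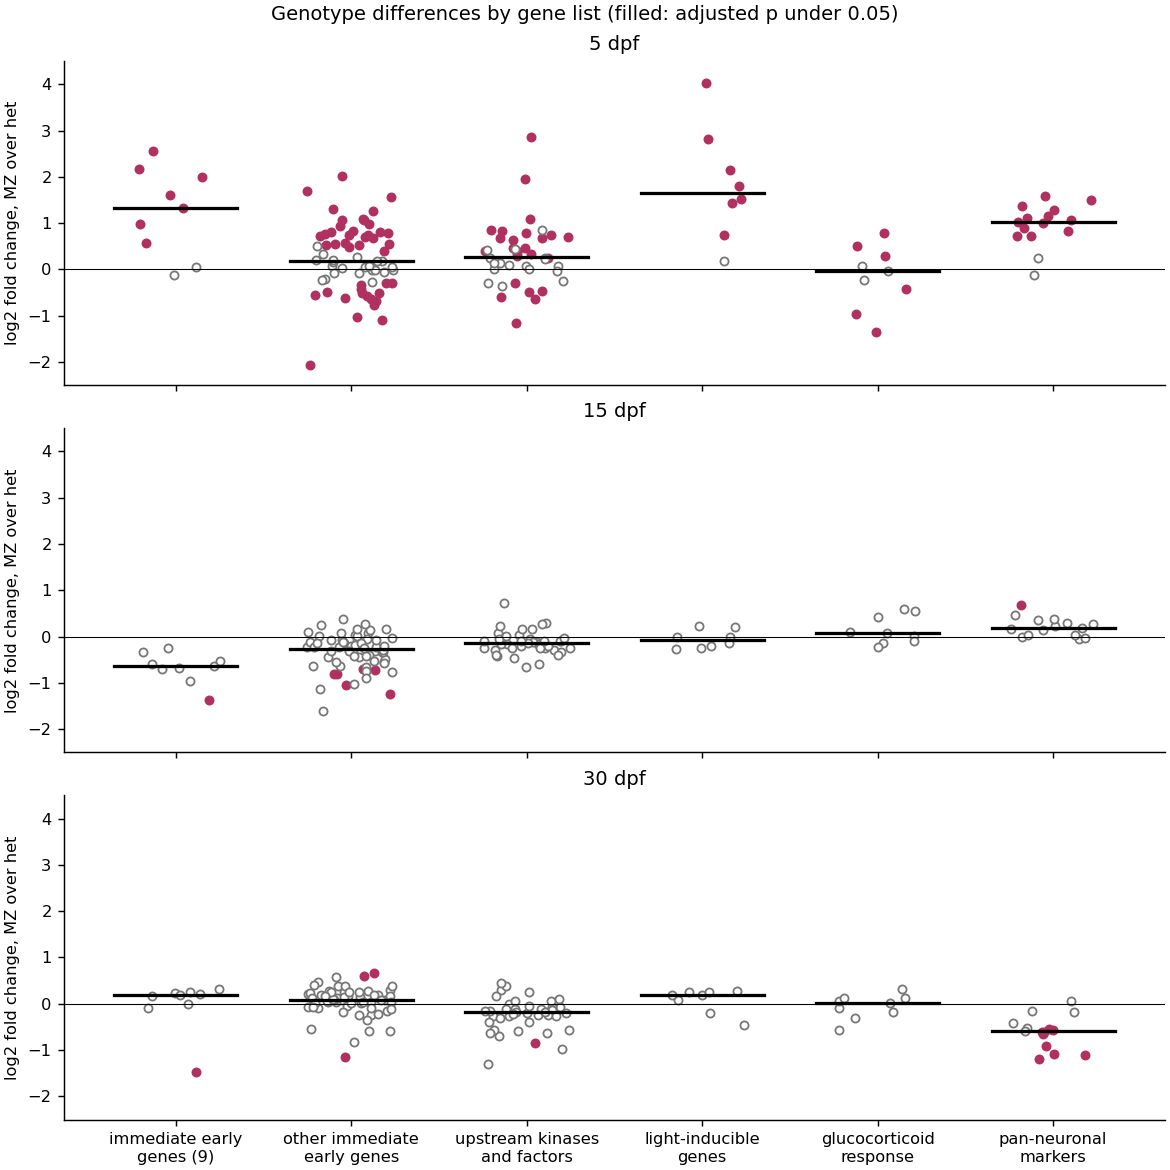
log2 fold change of MZ over het for the genes of 6 lists at 5, 15 and 30 dpf; each point is a gene, filled where the adjusted p was under 0.05, and bars are medians. At 5 dpf the medians of the immediate early, light-inducible and pan-neuronal lists are 1.32, 1.66 and 1.03, and at 30 dpf the pan-neuronal median is -0.58.

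Light-inducible genes and neuronal markers had the direction of most members between the genotypes at 5 dpf, but not their course at every step of age. Their part in these results was not tested. Of 8 light-inducible genes 7 rose in MZ fish at 5 dpf and none fell, where 21.1% of all genes were called higher. The median log2 fold change of the 8 was 1.66. Their summed level was 436 to 478 CPM in MZ and 180 to 205 CPM in het libraries. The gene with the lowest p-value of all genes in that comparison was one of them, per2, a clock gene switched on by light (log2 fold change 4.04, SE 0.13, edgeR adjusted p = 9.03e-11), named here after its values were seen. From 5 to 15 dpf in het fish all 8 rose, where 19.7% of all genes were called higher. From 15 to 30 dpf 5 fell and none rose in het fish, where 8 members fell and 10.9% of all genes were called lower. In MZ fish 3 rose and 1 fell from 5 to 15 dpf, where 2 members fell and 57% of all genes were called. From 15 to 30 dpf 5 fell and none rose in MZ fish, where 0 members and 19.3% of all genes were called. Between the genotypes edgeR called 0 of the 8 at 15 dpf and 0 at 30 dpf, against 0.886% and 3.29% of all genes. At each age 1 had an unadjusted p under 0.05, and DESeq2 called 0.

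Of 9 glucocorticoid response genes, a list that shares no gene with the members, 3 rose and 3 fell in MZ fish at 5 dpf. Their median was -0.03, and 40.7% of all genes were called at that age. EdgeR called 0 of the 9 at 15 dpf and 0 at 30 dpf, against 0.886% and 3.29% of all genes. At each age 2 had an unadjusted p under 0.05, and DESeq2 called 1 and 0.

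Neuronal markers had the direction of npas4a at 5 and 30 dpf, while at 15 dpf the direction of npas4a was not resolved. Of 15 tested, 13 rose in MZ fish at 5 dpf and none fell, where 21.1% of all genes were called higher. Their median log2 fold change was 1.03, beside 0.99 for npas4a. At 30 dpf 9 fell and none rose, where 2.19% of all genes were called lower. The median was -0.58, beside -1.48 for npas4a, and the summed level was 1211 to 1412 CPM in MZ and 1596 to 2122 CPM in het libraries. At 15 dpf 1 rose, where 0.886% of all genes were called, and the median was 0.19. The value of npas4a at that age was -0.33 (SE 0.39), its groups overlapped, and it was not called. In het fish 2 markers fell and none rose from 5 to 15 dpf, where 39.7% of all genes were called. Their median was 0.03, against 1.545 for the members. From 15 to 30 dpf in het fish 8 rose and none fell, where 8 members fell and 21.5% of all genes were called. In MZ fish 12 fell from 5 to 15 dpf, against 57% of all genes called. From 15 to 30 dpf 8 fell and 2 rose in MZ fish, against 19.3%. Epidermis markers fell in MZ fish at 5 dpf for 6 of 10 genes and rose for 1, where 40.7% of all genes were called, with a median of -0.47. For fast muscle, liver, erythrocyte and leukocyte markers the 5 dpf medians lay between -0.07 and 0.10. At 30 dpf the medians were -0.42 for liver, 0.38 for fast muscle, 0.27 for epidermis, -0.18 for erythrocyte and 0.17 for leukocyte markers. Of 10 liver markers 0 were above 0, as were 15 of 16 fast muscle markers. EdgeR called 0 liver markers and 1 fast muscle marker, where 3.29% of all genes were called. DESeq2 called 7 and 6 of them, among 1224 genes.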

How the data were processed

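RNA from whole zebrafish was sequenced in 18 libraries, 3 for each of 6 groups of genotype and age, taken from the sample titles. The deposited table holds raw read counts by gene name, in 18 columns that each matched 1 library. Per the submitters' processing notes, cutadapt, STAR 2.5.4b, featureCounts 1.6.3 of Subread and the build GRCz10 were used. Strand and shared-read settings are not given in the sources used here, so copies of a gene family and overlapping genes are uncertain. Per the labels' protocols, libraries came from total RNA with a SMARTer kit. The deposited gene length served to compare levels between genes.

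Counts were fitted in edgeR 4.0.16 (R 4.3.3) with filterByExpr (minimum count 10), TMM factors and quasi-likelihood F tests, on the groups compared or, for the interaction of genotype and age, on all 18 libraries. The SE is the absolute log2 fold change divided by the square root of F. Alternatives were DESeq2 1.42.0, its size factors, no filter, a replicate block, one fit over all libraries and each library left out. The fits were tested on simulated data with a single fixed spread. That spread was larger than the estimate only between genotypes at 5 dpf and in het fish from 5 to 15 dpf. In the other comparisons and the interaction the estimate was larger, most so between genotypes at 30 dpf and from 15 to 30 dpf in MZ fish. The simulation cannot speak for the calls, or their absence, in those fits. Named genes were all members, listed paralogs, genes most like the members, and up to 5 called genes with the largest changes per list and age. Members and lists were chosen with earlier results of these data known. Libraries of a group differed by more than counting noise (chi-square per degree of freedom 4.73 to 16.9). No sequence of a member was used here.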

Additional observations from a re-analysis of the deposited data

Results flagged for a closer look

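The difference between MZ and het fish changed with age, by the interaction test of edgeR on 2 degrees of freedom, for the genes given here. They are those called, where the test called 33.3% of all genes. Many genes of the lists were named for a large difference at an age in these same libraries, which favours a call here. Among the members and their relatives, atf3, fosaa, egr2b and npas4b were not called. Among the members the adjusted p was 2.69e-07 for junba, 2.33e-06 for fosab, 4.69e-06 for ier2, 1.36e-05 for junbb, 7.49e-05 for egr1, 0.000517 for sik1, 0.00210 for npas4a and 0.0328 for nr4a1. For 7 of these the interaction was called in each of 18 fits without 1 library. That of nr4a1 was called in 12 of them. The row IER2_(1_of_2) had an adjusted p of 5.45e-05.

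Among the relatives and other rapidly induced genes it was 1.58e-05 for nr4a3, 4.99e-05 for cebpb, 9.91e-05 for btg2, 0.000293 for gadd45ab, 0.000318 for fosb, 0.000394 for klf2a, 0.000502 for egr3, 0.00180 for egr2a, 0.00221 for EGR4, 0.00289 for nr4a2b, 0.00500 for cebpd, 0.00558 for jun and 0.0242 for ctgfb. Among upstream genes it was 6.55e-05 for sik2b, 0.000158 for camk2a, 0.000450 for crtc1b, 0.00233 for prkacba and 0.00433 for sik2a. It was 1.22e-10 for per2.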

How the results depend on the processing

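The 7 calls at 5 dpf kept their direction under every alternative, and sik1 lost its call in one fit over all libraries. That fit moved the genes called at 5 dpf from 4172 higher and 3871 lower to 3248 and 4517. At 15 dpf the 171 genes called became 618 with DESeq2 (405 higher, 213 lower), 543 with no filter, 77 with the replicate block (46 higher, 31 lower) and 278 in one fit, and the members called 4, 6, 2 and 2. With 1 library left out they ran from 2 to 923 genes and from 0 to 7 members. At 30 dpf the 657 genes became 1224 with DESeq2 and 1770 in one fit, and 1 to 1118 with 1 library left out, when members ran from 0 to 1. The interaction called 3920 genes for 15 against 5 dpf and 817 genes and 1 member for 30 against 15 dpf. From 5 to 15 dpf in MZ fish, 5 members were called with no filter and 5 with the block (each 1 higher, atf3, and 4 lower), and 2 to 6 with 1 library left out. From 15 to 30 dpf in MZ fish one fit called 5768 genes (2494 higher, 3274 lower, against 1999 and 1771) and 1 member, and fits without 1 library 2434 to 3372 genes. In het fish these were 2772 to 3729. Same-numbered libraries had correlations of deviations from -0.178 to 0.172, and no comparison had all 3 above 0.1. From 5 to 15 dpf in MZ fish they were 0.172, 0.121 and 0.0537. These values cannot exclude that library numbers pair some of the samples.

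Directions turned for values near 0, not called in the fits reported. In one fit the log2 fold change was -0.024 for atf3 at 5 dpf, -0.022 for egr1 at 30 dpf, and -0.026, -0.047 and -0.020 for fosab, junba and ier2 from 15 to 30 dpf in MZ fish. With no filter it was -0.0032 for egr1 at 30 dpf and -0.00036 for fosab from 5 to 15 dpf in MZ fish. With the block these were -0.010 and -0.0047, and junbb from 15 to 30 dpf was 0.018. With 1 library left out atf3 at 5 dpf ran from -0.073 to 0.16, and at 30 dpf egr1 from -0.19 to 0.11, nr4a1 from -0.15 to 0.35 and sik1 from -0.45 to 0.090. In MZ fish from 5 to 15 dpf fosab ran from -0.21 to 0.19 and junbb from -0.41, then called, to 0.0098. From 15 to 30 dpf the ranges were -0.074 to 0.30 for egr1, -0.10 to 0.29 for fosab, -0.073 to 0.13 for ier2, -0.12 to 0.21 for junba, -0.17 to 0.27 for junbb, -0.43 to 0.18 for nr4a1 and -0.25 to 0.45 for sik1. The causes were not tested. With 3 libraries a group an exact permutation test cannot go below 0.1.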
